A study of Mus musculus with 80 samples.

Results

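The liver of a fasted mouse was compared here between the early active phase and the early rest phase of the circadian day. The early active phase was sampled at circadian time (CT) 16 and again at CT40, each 4 h into the subjective night, and the early rest phase at CT28, 4 h into the subjective day. Food was removed at CT10, so the livers had been without food for 6 h at CT16, 18 h at CT28 and 30 h at CT40. The mean length of the fast was therefore 18 h on both sides. The comparison used 12 libraries, chosen by the treatment and time in their titles out of 80 in the series: 8 of the active phase and 4 of the rest phase, with 2 males and 2 females at each time. Nothing states that each library came from a different mouse, so p-values rest on the spread between libraries. That spread was estimated within groups over all 80 libraries, not from these 12 alone. All mice were C57BL/6J, an inbred laboratory strain with no allele named beside it, bought at 8 to 12 weeks of age, kept for 10 days in a cycle of 12 h light and 12 h dark and then moved to constant darkness, in which they were killed. The fed mice that serve as a reference were treated alike but kept their chow, and 12 fed libraries of the same 3 times were compared in the same way. Treatment and sex were read from the titles, because the more detailed labels go against many titles in both. The headers of the deposited counts give the same treatment and sex as the titles. Polyadenylated RNA from the left lobe was sequenced, and values are gene counts or counts scaled to library size (CPM).

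Because the active phase lies on both sides of the rest phase in time, a steady rise or fall along the fast does not enter the comparison. A change that bends along the fast does enter it. With only these 3 times, such a bend and a difference between the phases cannot be told apart, so the 2 active-phase times are also given on their own against CT28 (these share the 4 CT28 libraries), as are the same contrast in fed liver and, for some genes, the neighbouring times.

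The circadian clock is a loop in which CLOCK, or its relative NPAS2, pairs with BMAL1 and switches on the Per, Cry and Rev-erb (Nr1d1 and Nr1d2) genes, whose proteins then switch the pair or its genes off. In liver the loop runs ahead of output factors such as DBP and TEF, and of enzymes that handle lipid, glucose and drugs. Liver also takes time from feeding, temperature and hormones, among them the glucocorticoids that rise before a nocturnal animal wakes. In fasting, falling insulin and rising glucagon and glucocorticoids lead to glucose production and to ketone body synthesis, the latter largely under the lipid-sensing receptor PPARα.

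Total gene counts of the 12 libraries lay between 26820667 and 51834302. Markers of hepatocytes summed to 77900 to 132000 CPM in the 12 libraries, and markers of sex went with the title in 12 of 12. One library stood apart, CT40 female 2, whose mean absolute log2 deviation from its group was 0.463, against 0.162 to 0.24 in the other 11. Another, CT40 male 1, had 1.8% of its reads assigned to Rn18s-rs5, a ribosomal RNA gene, against 0.0597% to 0.196% in the others. Counts of list members are given without CT40 female 2 wherever that changed them by more than 1.5 times, and CT40 male 1 is named where it decides a count.

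Of 21187 genes tested, 5351 (25.3%) differed between the phases in fasted liver at an adjusted p under 0.05, by edgeR's quasi-likelihood test with Benjamini-Hochberg adjustment. Of these, 2469 (11.7% of the genes tested) were higher in the active phase and 2882 (13.6%) were lower. The same contrast in fed liver called 2970 genes (14%), 1338 higher (6.32%) and 1632 lower (7.7%). Both contrasts called 1324 genes, which is 24.7% of the fasted calls and 44.6% of the fed calls. Of these shared genes, 1215 had the same sign and 109 had opposite signs. The difference between the contrasts, fasted minus fed, was itself called for 1582 genes (7.47%), 859 upward (4.05%) and 723 downward (3.41%).

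Against CT28, CT16 alone called 6431 genes (30.4%), 3156 higher (14.9%) and 3275 lower (15.5%), and CT40 alone called 3552 (16.8%), 1773 higher (8.37%) and 1779 lower (8.4%). The CT40 count fell to 2096 without CT40 male 1, to 2289 without CT28 female 2 and to 2342 without CT40 female 2. The fasted minus fed count was 1023 without CT28 female 1 and 2417 without CT40 female 1, and the fed count was 1746 without fed CT28 male 2. In 500 genes (2.36%) all 8 active-phase libraries lay above all 4 rest-phase ones, and in 501 genes (2.36%) all lay below. These 1001 genes became 1676 without CT28 male 1 and 1654 without CT40 female 2, both of which leave fewer libraries to overlap.

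Higher and lower calls differed in kind. Among the 11502 genes with a mean log2 CPM of at least 1, more were higher (2145, 18.6%) than lower (1675, 14.6%). Among the 9685 less abundant genes the calls were mostly lower (1207, 12.5%, against 324 higher, 3.35%), and 336 of the 344 genes that were lower by at least 2 on the log2 scale were of this kind. Their summed level was 5220 to 5610 CPM at CT28, 4840 to 5290 at CT16 and 4540 to 5060 at CT40, so the CT28 and CT16 ranges overlapped. The largest rises and falls named below were therefore taken from genes with a mean log2 CPM of at least 1.

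The clock loop separated the phases in most of its genes. Of 13 activators and repressors, 9 were higher in the active phase of fasted liver and 3 lower, or 69.2% and 23.1%. Over all genes tested the shares were 11.7% and 13.6%. The median log2 difference of the 13 was 0.83 (over all genes tested, -0.02). In fed liver 6 were higher and 3 lower, with a median of 0.21. The remaining member, Clock, had a log2 difference of -0.00 and was not called.

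**Figure D1:**
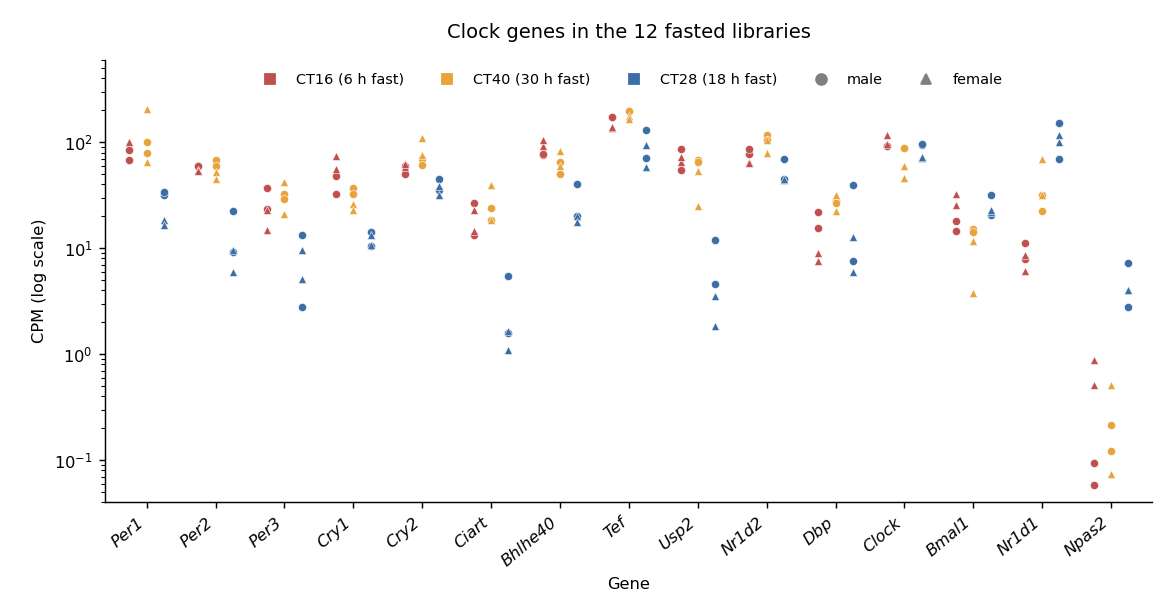
Level of 15 clock genes, clock outputs and clock regulators in each of the 12 fasted libraries, in CPM on a log scale, with circles for males and triangles for females. All 8 active-phase points (CT16 red, CT40 orange) lie above all 4 rest-phase points (CT28 blue) for Per1, Per2, Per3, Cry1, Cry2, Ciart, Bhlhe40, Tef and Usp2 and below them for Npas2, whereas the groups overlap for Nr1d2, Dbp, Clock, Bmal1 and Nr1d1.

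The repressor arm was high in the active phase. In each group below the values of the 2 males precede those of the 2 females. Per2, a repressor of the CLOCK and BMAL1 pair, stood at 59.2, 59.9, 54.5 and 53.6 CPM at CT16, 68.7, 59.9, 52.4 and 44.6 at CT40 and 9.12, 22.5, 9.59 and 6.03 at CT28. Every active-phase library lay above every rest-phase one, with a log2 difference of 2.34 ± 0.21 (SE, adjusted p = 9.24e-11), and 2.93 ± 0.22 in fed liver. Cry1, its partner in repression, stood at 48.1, 32.5, 56.3 and 74.4 CPM at CT16, 37.3, 32.8, 26.3 and 22.9 at CT40 and 14.2, 10.6, 13.2 and 10.7 at CT28, again without overlap (log2 difference 1.67 ± 0.19). Ciart, a further repressor, had the largest rise of the loop genes, from 1.09 to 5.43 CPM at CT28 to 13.4 to 39.6 CPM in the active phase (log2 difference 3.32 ± 0.35). Per1 and Per3 rose by 2.04 and 1.82 on the log2 scale, and Cry2 by 0.83.

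Npas2, whose protein can stand in for CLOCK, went the other way. Its levels were 0.094, 0.0578, 0.516 and 0.888 CPM at CT16, 0.123, 0.216, 0.0733 and 0.516 at CT40 and 7.2, 2.79, 4.03 and 4.02 at CT28. The active-phase values were all below 1 CPM and none reached the lowest CT28 value. The log2 difference was -4.29 ± 0.39 in fasted liver and -3.23 ± 0.35 in fed liver, and the difference between them was not called (adjusted p = 0.275). The fed CT28 group was split by sex, with 1.35 and 1.74 CPM of Npas2 in the males and 16.2 and 16.1 in the females. Bmal1 was split likewise there, with 9.66 and 12.6 CPM in the males and 31.2 and 39.5 in the females. Along the fasted course Npas2 averaged 10.4 ± 5.27 CPM (SD, n = 4) at CT24 and 0.388 ± 0.144 at CT32, so CT28 caught it on the way down. Bmal1 was lower by 0.66 on the log2 scale (adjusted p = 0.0396), but that call was lost when any of 8 of the 12 libraries was left out, with adjusted p up to 0.227. Its difference lay at CT40 (-1.17, adjusted p = 0.00443) rather than at CT16 (-0.16, adjusted p = 0.731), 2 values that share their CT28 libraries.

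The pair of Rev-erb genes, which encode repressors of Bmal1 and Npas2, moved in opposite directions. Nr1d1 stood at 7.84, 11.2, 6.14 and 8.61 CPM at CT16, 31.8, 22.3, 31.9 and 69 at CT40 and 68.9, 152, 117 and 99.5 at CT28. The CT16 values were uniformly low, whereas the CT40 values were intermediate, and the highest of them (69 CPM, in CT40 female 2) just passed the lowest CT28 value. The log2 difference was -2.64 ± 0.25 in fasted liver and -4.68 ± 0.27 in fed liver, and the difference of 2.04 ± 0.38 was called (adjusted p = 0.000423). In fed liver Nr1d1 averaged 5.69 ± 2.13 CPM at CT16 and 6.3 ± 3.42 at CT40 (SD, n = 4), and in fasted liver 8.45 ± 2.11 and 38.7 ± 20.7.

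Nr1d2 stood at 77.8, 87.1, 65.4 and 63.4 CPM at CT16, 117, 104, 79.3 and 104 at CT40 and 45.1, 69.6, 43.7 and 45.4 at CT28. Its active-phase levels were the higher ones, by 0.76 ± 0.14 on the log2 scale, with the groups overlapping through CT28 male 2. In fed liver the sign was reversed (-0.83 ± 0.13, adjusted p = 6.32e-06), and the fasted minus fed difference of 1.59 ± 0.19 was among the 5 upward ones with the smallest p. Fed CT28 held 89.4 and 81.4 CPM in the males and 54.6 and 37.3 in the females. Fasted Nr1d2 was lowest at CT24 (28.3 ± 7.48 CPM, SD, n = 4) and stayed near 100 CPM from CT32 (94.3 ± 6.67) through CT36 (103 ± 15.1) to CT40 (101 ± 15.9).

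Of the 6 output factors, Bhlhe40 and Tef rose without overlap, by 1.65 and 0.93 on the log2 scale. Hlf rose by 0.42, a call lost without any of 9 of the 12 libraries (0.23, adjusted p = 0.249, without CT40 female 1), and Dbp, Nfil3 and Bhlhe41 were not called. Dbp, the best known of them, fell in fed liver (log2 difference -1.40 ± 0.31), where CT28 held 72.1 and 78 CPM in the males but 13.3 and 1.67 in the females, and had 0.32 ± 0.32 in fasted liver, where its CT28 values ran from 6.01 to 39.2 CPM. Without the library at 39.2 CPM, CT28 male 2, Dbp was higher by 1.14 (adjusted p = 0.0223). Its fasted minus fed difference (1.72 ± 0.46, adjusted p = 0.0134) was lost without CT28 male 1 and without CT28 female 2, with adjusted p up to 0.0618. Among 10 clock kinases and ubiquitin enzymes, 5 were higher and 2 lower (50% and 20%, over all genes tested 11.7% and 13.6%). Usp2, a deubiquitinase that acts on PER and CRY proteins, had the largest rise of them and stood at 87.2, 54.6, 64.5 and 72.4 CPM at CT16, 67.8, 65.4, 53.7 and 24.8 at CT40 and 4.63, 11.9, 3.52 and 1.83 at CT28. Its log2 difference of 3.66 ± 0.29 was close to that in fed liver (3.54 ± 0.29), and the difference between them was 0.12 ± 0.36. Fed CT28 held 7.4 and 7.3 CPM of Usp2 in the males and 1.52 and 1.43 in the females.

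Promoter sequences show where short motifs of the clock lie in these genes. RefSeq promoters on GRCm38.p6, 250 bases before to 50 bases after each start, were found for 95 of the 120 genes named by rule. Both strands were searched for the E-box CACGTG, bound by CLOCK and BMAL1, the D-box TTATGTAA, bound by DBP, TEF and NFIL3, the REV-ERB/ROR element TAGGTCA, the cAMP response element TGACGTCA, bound by CREB, and the 13-letter heat shock element bound by HSF1. The first 6 promoters below belong to clock genes and outputs that hold one of the first 3 motifs. Dusp8 and Hsph1 follow as the named genes outside the clock with a cAMP response element and with a heat shock element. Matches are in capitals, and all sequences read 5′ to 3′ along the gene.
Ciart, chr3:95882179-95882478 (-): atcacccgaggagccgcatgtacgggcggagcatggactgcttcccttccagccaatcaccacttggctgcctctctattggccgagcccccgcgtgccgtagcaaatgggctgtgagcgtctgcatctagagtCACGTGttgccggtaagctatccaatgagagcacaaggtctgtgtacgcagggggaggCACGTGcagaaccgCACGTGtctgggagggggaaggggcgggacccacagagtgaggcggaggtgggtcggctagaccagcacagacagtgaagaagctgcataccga
Per1, chr11:69098699-69098998 (+): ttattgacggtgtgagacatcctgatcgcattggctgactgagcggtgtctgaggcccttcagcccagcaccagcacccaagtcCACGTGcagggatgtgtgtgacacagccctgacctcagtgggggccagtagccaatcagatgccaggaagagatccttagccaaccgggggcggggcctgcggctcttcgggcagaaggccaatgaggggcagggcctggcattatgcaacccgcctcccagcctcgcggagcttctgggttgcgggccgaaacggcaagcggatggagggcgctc
Cry1, chr10:85185005-85185304 (-): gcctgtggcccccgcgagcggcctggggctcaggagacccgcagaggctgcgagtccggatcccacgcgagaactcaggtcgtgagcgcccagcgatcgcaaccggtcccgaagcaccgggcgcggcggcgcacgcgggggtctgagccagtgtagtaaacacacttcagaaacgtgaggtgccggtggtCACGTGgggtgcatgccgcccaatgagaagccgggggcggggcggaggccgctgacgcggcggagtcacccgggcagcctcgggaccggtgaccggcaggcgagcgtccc
Per3, chr4:151044616-151044915 (-): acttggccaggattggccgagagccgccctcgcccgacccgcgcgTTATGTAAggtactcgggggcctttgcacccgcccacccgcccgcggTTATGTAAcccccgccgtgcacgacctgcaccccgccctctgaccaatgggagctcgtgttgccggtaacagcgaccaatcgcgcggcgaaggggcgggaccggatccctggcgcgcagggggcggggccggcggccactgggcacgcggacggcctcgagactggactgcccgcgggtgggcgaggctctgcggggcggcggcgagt
Bmal1, chr7:113207261-113207560 (+): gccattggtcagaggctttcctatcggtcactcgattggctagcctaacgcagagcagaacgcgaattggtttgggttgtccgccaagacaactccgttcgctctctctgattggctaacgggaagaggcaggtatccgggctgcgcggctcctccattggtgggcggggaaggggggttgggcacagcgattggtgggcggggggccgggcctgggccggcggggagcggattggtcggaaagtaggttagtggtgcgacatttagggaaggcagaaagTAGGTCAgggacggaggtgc
Nfil3, chr13:52980990-52981289 (-): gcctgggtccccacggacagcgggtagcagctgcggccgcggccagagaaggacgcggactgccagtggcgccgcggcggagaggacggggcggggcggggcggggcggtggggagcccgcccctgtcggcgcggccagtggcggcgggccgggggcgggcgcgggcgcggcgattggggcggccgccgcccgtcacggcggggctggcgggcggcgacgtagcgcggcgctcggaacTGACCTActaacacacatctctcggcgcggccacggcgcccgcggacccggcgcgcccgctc
Dusp8, chr7:142095235-142095534 (-): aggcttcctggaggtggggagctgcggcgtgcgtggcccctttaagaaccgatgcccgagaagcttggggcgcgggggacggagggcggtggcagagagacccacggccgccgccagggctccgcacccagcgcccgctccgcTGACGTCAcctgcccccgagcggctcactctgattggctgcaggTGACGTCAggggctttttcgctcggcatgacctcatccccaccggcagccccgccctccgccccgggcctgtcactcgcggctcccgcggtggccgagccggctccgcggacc
Hsph1, chr5:149636266-149636565 (-): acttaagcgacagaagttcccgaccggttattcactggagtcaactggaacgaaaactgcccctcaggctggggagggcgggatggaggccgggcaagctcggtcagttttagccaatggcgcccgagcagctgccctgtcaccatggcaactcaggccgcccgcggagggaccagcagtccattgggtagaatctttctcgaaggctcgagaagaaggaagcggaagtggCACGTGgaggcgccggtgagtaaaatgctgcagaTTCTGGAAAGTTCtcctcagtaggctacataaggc

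Ciart held 3 E-boxes, Per1 and Cry1 1 each, and Per3 2 D-boxes, and all 4 genes rose without overlap. An E-box was found in 6 of the 21 promoters (28.6%) of clock genes and output factors, and not all of these are printed. The printed ones therefore do not show how the motif goes with direction. Bmal1 and Nfil3 each held 1 REV-ERB/ROR element. Among all 32851 promoters, 7.15% held an E-box, 0.938% a D-box, 2.61% a REV-ERB/ROR element, 1.79% a cAMP response element and 0.603% a heat shock element. An E-box was found in 11.1% of the 2221 promoters of genes higher in the active phase, in 8.86% of the 2382 of genes lower, and in 9.1% of the 15962 promoters of all genes tested. The REV-ERB/ROR element was found in 1.4%, 2.69% and 2.1% of the same promoters. Alternative starts of 1 gene share sequence, and a match shows only that the letters are present.

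Genes known to respond to glucocorticoids gave the highest share of rises among the 24 lists, 77.8%. Of 18 tested, 14 were higher in the active phase and 0 lower (background 11.7% higher), with a median log2 difference of 1.46, against 0.38 in fed liver. Side by side, the medians were 1.43 at CT16 and 1.15 at CT40, with 13 and 11 members higher. The list holds genes that are also clock genes (Per1) or respond to other fasting signals (Igfbp1, Tat, Lpin1). The fasted minus fed difference was called upward for 7 members and downward for 0 (over all genes tested, 4.05% and 3.41%). Without CT40 female 2, 13 were higher and the median was 1.08.

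**Figure D2:**
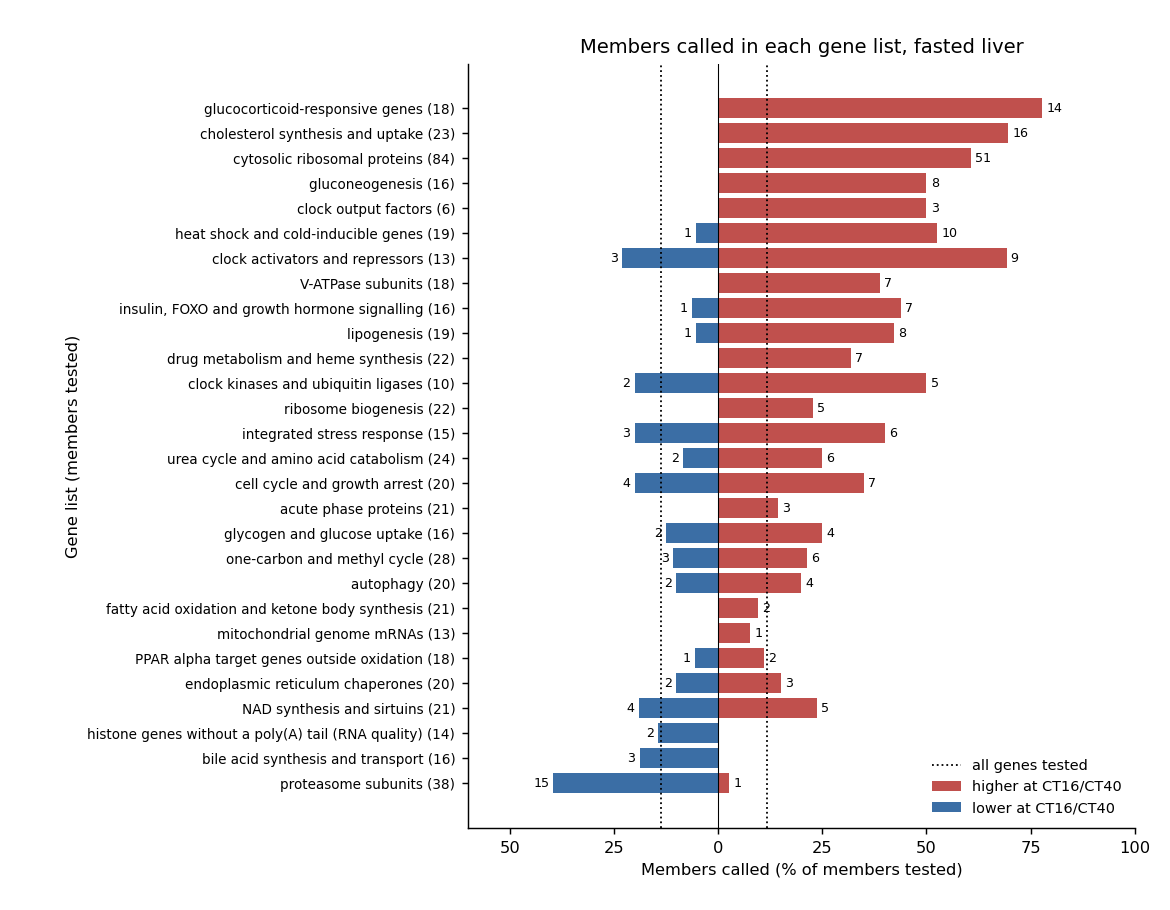
Share of the tested members of each of 24 gene lists and 4 gene families called higher (right, red) or lower (left, blue) at CT16 and CT40 than at CT28 in fasted liver, in percent, with the number called at the end of each bar. Dotted lines mark the shares over all genes tested, 11.7% higher and 13.6% lower, and the glucocorticoid-responsive genes (14 of 18) and the cholesterol genes (16 of 23) reach furthest to the right.

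Lpin1, a phosphatidate phosphatase and coactivator of lipid oxidation genes, led this list. It stood at 1180, 1080, 1300 and 965 CPM at CT16, 907, 601, 499 and 2650 at CT40 and 85.2, 223, 72.4 and 56 at CT28. The active-phase libraries lay above the rest-phase ones without overlap, by 3.48 ± 0.54 on the log2 scale (adjusted p = 4.44e-06), whereas in fed liver the difference was 0.58 ± 0.46 (adjusted p = 0.466). The fasted minus fed difference, 2.90 ± 0.65, was called (adjusted p = 0.0031). Its course in fasted liver went up, down and up again: 1170 ± 242 CPM (SD, n = 4) at CT20, 109 ± 76.9 at CT28, 377 ± 234 at CT32 and 1360 ± 778 at CT44. Lpin2, its relative, rose by 1.67 ± 0.19, with 0.06 ± 0.18 in fed liver.

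Other members rose as well. Tat, which breaks down tyrosine, ranged from 2120 to 10600 CPM in the active phase and from 1080 to 2420 CPM at CT28, a log2 difference of 1.79 ± 0.32 against 0.24 ± 0.29 in fed liver. Fkbp5, a chaperone of the glucocorticoid receptor, rose by 1.59 in fasted and 1.30 in fed liver, and Dusp1, a MAP kinase phosphatase, by 1.82 in fasted liver (0.39 in fed, not called). Klf9, a transcription factor, rose by 0.93 in fasted liver and fell by 0.66 in fed liver. Zbtb16 rose by 2.04. Igfbp1, which binds insulin-like growth factors and is restrained by insulin, stood at 430, 433, 953 and 1580 CPM at CT16, 544, 353, 104 and 6300 at CT40 and 251, 77, 136 and 497 at CT28. The highest value by far was that of CT40 female 2. The log2 difference of 2.05 ± 0.75 (adjusted p = 0.0402) became 0.81 (adjusted p = 0.392) without it, and the call was lost without any of 7 of the 12 libraries. Igfbp1 fell in fed liver (-1.98 ± 0.66, adjusted p = 0.0356), and its fasted minus fed difference was 4.03 ± 1.02 (adjusted p = 0.00915). Fed CT28 held 21.3 and 36.5 CPM in the males and 48.9 and 218 in the females. Fed active-phase libraries held 4.26 to 52.9 CPM. How far the fasted minus fed difference rests on CT40 female 2 or fed CT28 female 2 was not tested. Sgk1, Mt1, Mt2 and Sds were not called.

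Genes of glucose production were also higher where they differed. Of 16 genes of gluconeogenesis, 8 were higher and 0 lower (50% and 0%, background 11.7% and 13.6%). The median was 0.39 in fasted and 0.09 in fed liver. The fasted minus fed difference was called upward for 6 (over all genes tested, 4.05%). Pck1 and G6pc1, the enzymes of the first committed and the last step, rose by 0.62 and 0.92 in fasted liver and fell by 1.13 and 0.69 in fed liver, the fasted Pck1 call being lost without CT40 female 2 (0.50, adjusted p = 0.0863). Foxo1, a transcription factor restrained by insulin, rose by 1.05 ± 0.12. Ppargc1a, a coactivator of gluconeogenic genes, rose by 1.23 ± 0.31. Got1 rose by 1.02, but its call was lost without any of 4 of the 12 libraries (adjusted p up to 0.138). At CT40 11 members were higher than at CT28, and at CT16 4 were. Of 16 genes of insulin, FOXO and growth hormone signalling, 7 were higher and 1 lower (43.8% and 6.25%, background 11.7% and 13.6%). The median was 0.40, in fed liver -0.04. Among those higher were Foxo3 (0.85), Ghr (0.44) and Pik3r1 (0.42), while Stat5b fell by 0.32.

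Pdk4, a kinase that shuts the entry of pyruvate into the citric acid cycle, showed a wide spread. It stood at 34.5, 23.9, 200 and 802 CPM at CT16, 121, 74.8, 88.2 and 373 at CT40 and 20.1, 8.38, 13.6 and 17.3 at CT28. The females of CT16 were above its males, yet all 8 values lay above the 4 of CT28. The log2 difference was 3.18 ± 0.49 (adjusted p = 4.12e-06), against -0.61 ± 0.41 in fed liver (not called), and the difference between them was 3.79 ± 0.62 (adjusted p = 7.29e-05). Like Lpin1 it fell and rose within the fast, from 245 ± 157 CPM (SD, n = 4) at CT20 to 6.29 ± 1.83 at CT32 and 264 ± 77.1 at CT44.

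Ppp1r3g, a regulatory subunit that brings protein phosphatase 1 to glycogen, had the largest rise of all genes named by rule. It stood at 34.1, 22.4, 18.3 and 84.6 CPM at CT16, 17.3, 15.8, 7.43 and 115 at CT40 and 0.961, 0.0908, 0.846 and 6.8 at CT28. The lowest active-phase value (7.43 CPM) and the highest rest-phase value (6.8 CPM) were close, while the log2 difference was 4.62 ± 0.88 (adjusted p = 0.000103). In fed liver it was -2.08 ± 1.17 (adjusted p = 0.262, not called), on low values of 0.0661 to 1.45 CPM. The fasted minus fed difference, 6.71 ± 1.44 (adjusted p = 0.00205), includes this uncalled fed value. Of 16 genes of glycogen and glucose uptake, 4 were higher and 2 lower (25% and 12.5%, background 11.7% and 13.6%), and 7 were higher without CT40 female 2. Ppp1r3b, another such subunit, rose by 1.60 in fasted and 1.98 in fed liver, and Gys2, the liver glycogen synthase, by 0.74 and 0.65.

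**Figure D3:**
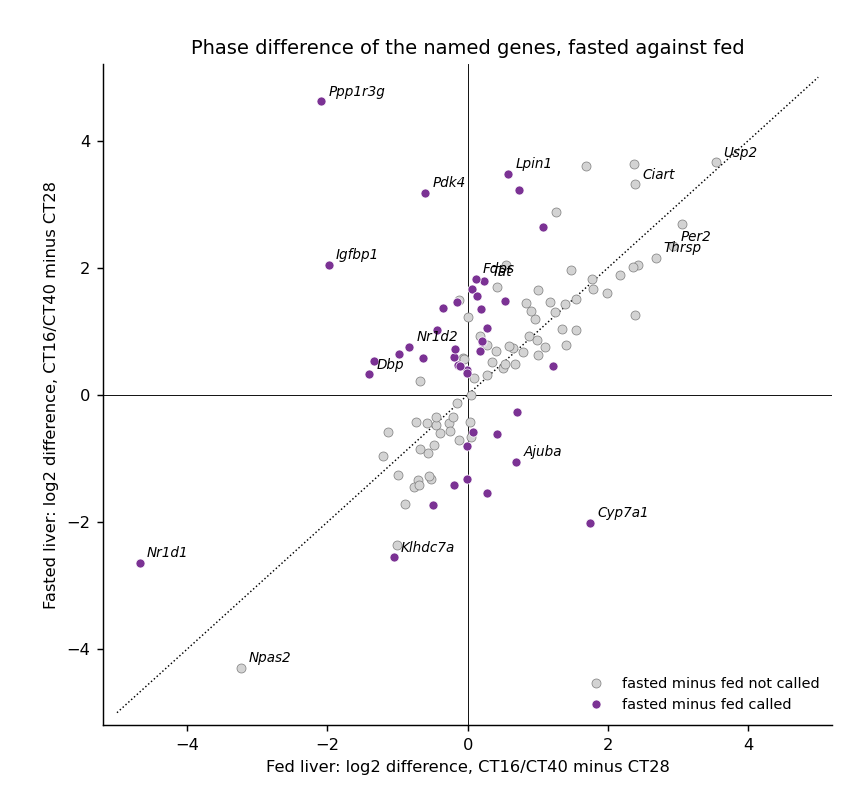
Log2 difference between the active-phase times (CT16 and CT40) and CT28 in fed liver (x axis) and fasted liver (y axis) for the 120 genes named by rule, with purple points where the fasted minus fed difference was called and a dotted line of equality. Usp2 and Per2 lie near the line, Ppp1r3g, Pdk4, Igfbp1 and Lpin1 far above it, and Cyp7a1 far below it.

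The enzymes of fatty acid oxidation and ketone body synthesis, which carry much of the fasting response of liver, gave few calls in the contrast of both active-phase times with CT28. Of 21 tested, 2 were higher and 0 lower, which is 9.52% against the background of 11.7% higher, and the median log2 difference was 0.02. Cpt1a, the gate of fatty acids into mitochondria, had -0.04, and Acadm, which oxidizes medium-chain fatty acids, had -0.10, neither of them called. Against CT28, 3 were higher and 6 lower at CT16 (median -0.22), and 3 higher and 0 lower at CT40 (median 0.18). The call of the receptor Ppara (0.58) was lost without any of 5 of the 12 libraries (0.24, adjusted p = 0.265, without CT40 female 1), and without CT40 female 2 the members called higher were 5. Of 18 other PPARα target genes, 2 were higher (Pdk4 and Angptl4) and 1 lower (Aqp9, a call lost without CT28 male 2, adjusted p = 0.0603), and Fgf21, a hormone of fasting liver, had 0.65 and was not called.

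Cholesterol synthesis and uptake gave the second highest share of members called higher among the 24 lists, 69.6%, and here the calls lay mostly at CT16. Of 23 genes tested, 16 were higher and 0 lower (background 11.7% and 13.6%), with a median log2 difference of 0.65. In fed liver 2 were higher and 1 lower, with a median of -0.09. Against CT28, 19 members were higher at CT16 (median 1.06) but 3 at CT40 (median 0.14). Fdps, which makes farnesyl diphosphate, stood at 117, 73.2, 70.8 and 114 CPM at CT16, 18, 11.3, 7.6 and 10.4 at CT40 and 7.45, 12.6, 10.1 and 6.78 at CT28. The CT16 values were all far above the rest, and the CT40 values overlapped those of CT28. The log2 difference was 3.35 at CT16 (adjusted p = 9.98e-13) and 0.31 at CT40 (adjusted p = 0.432). In the whole fasted course Fdps fell from 206 ± 49.1 CPM (SD, n = 4) at CT12 to 22.4 ± 8.15 at CT20 and stayed between 9.23 and 15.3 CPM on average from CT24 to CT44, while fed liver held 223 ± 62.6 at CT16, 247 ± 60.2 at CT28 and 323 ± 41.6 at CT40. The difference of the phase contrast thus lay at CT16, 6 h into the fast.

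Idi1 and Cyp51 showed the same order, with 2.79 and 2.37 at CT16 and 0.14 and 0.02 at CT40. Insig1, which retains the sterol sensor in the endoplasmic reticulum, differed at both times (2.26 and 0.87). Of 19 genes of lipogenesis, 8 were higher and 1 lower (42.1% and 5.26%, background 11.7% and 13.6%). Against CT28, 14 were higher at CT16 (median 1.07) and 2 at CT40 (median -0.09). Thrsp, a lipogenic factor, had 4.12 at CT16 and 0.19 at CT40 (log2 difference 2.16 ± 0.51 in the contrast), and Fasn, the fatty acid synthase, was not called (0.39) but had 0.92 and -0.14. In both lists the calls thus lay mostly at CT16, whereas Lpin1 and Pdk4 differed from CT28 at both times.

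**Figure D4:**
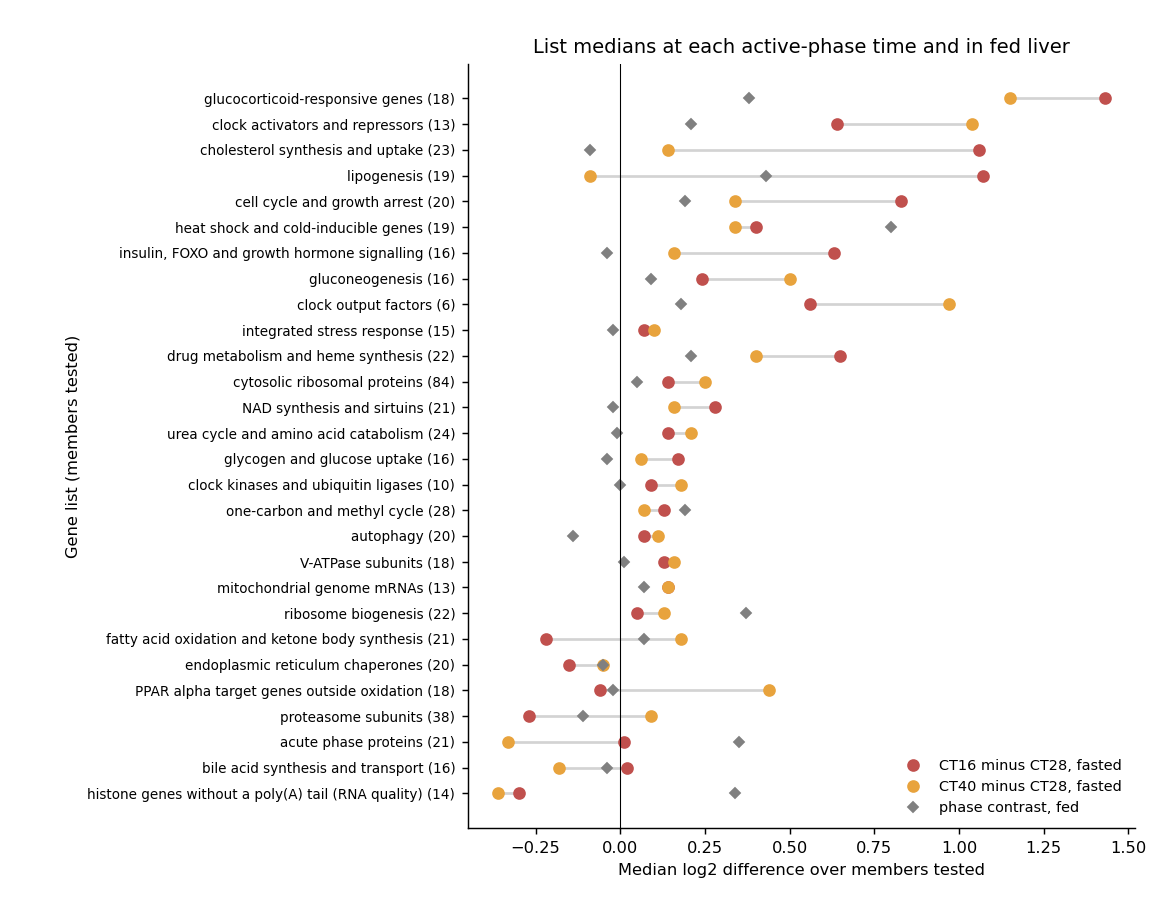
Median log2 difference over the tested members of each list for CT16 minus CT28 (red) and CT40 minus CT28 (orange) in fasted liver and for the whole phase contrast in fed liver (grey diamonds). The red and orange points share the CT28 libraries, and they lie far apart for lipogenesis (1.07 and -0.09) and cholesterol synthesis (1.06 and 0.14) but are both high for glucocorticoid-responsive genes (1.43 and 1.15).

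**Figure D5:**
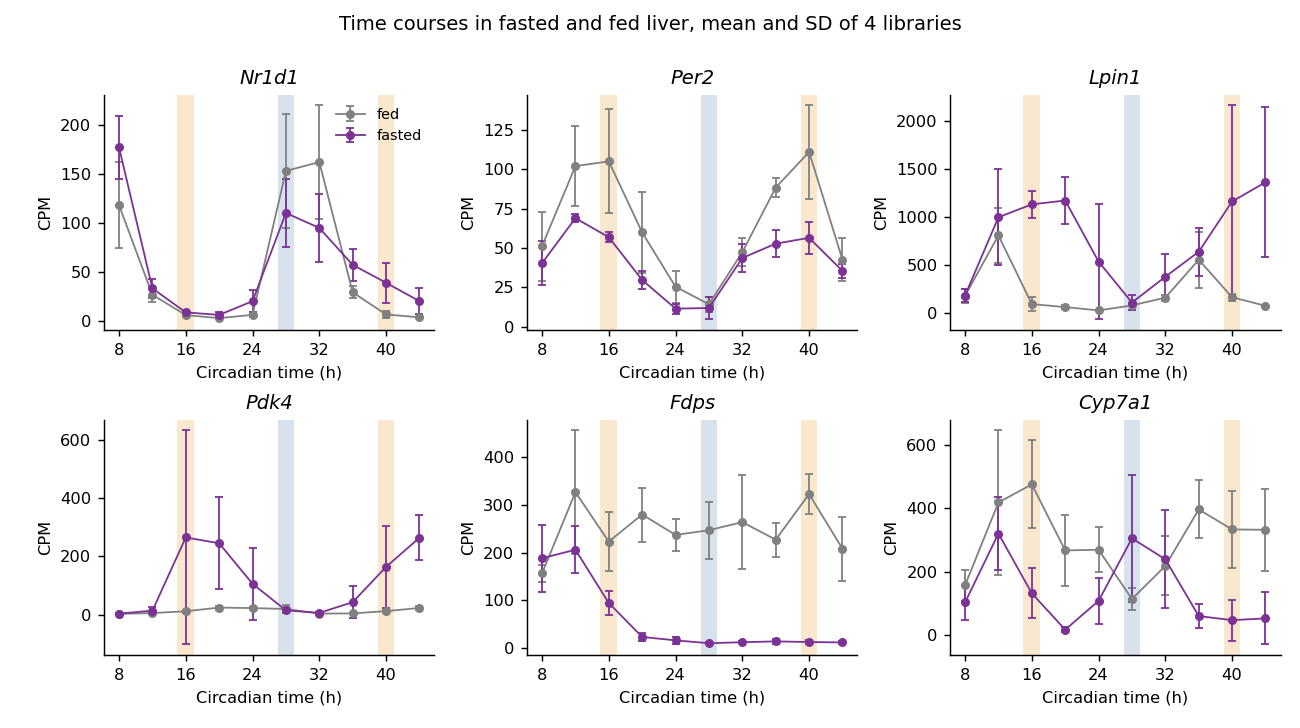
Mean level and SD of 4 libraries at each of the 10 times of the series for 6 genes, in CPM, in fed (grey) and fasted (purple) liver, with the active-phase times CT16 and CT40 shaded orange and CT28 blue. Lpin1 and Pdk4 fall to a trough around CT28 to CT32 and rise again in fasted liver, and Fdps falls once and stays low. The mean of Cyp7a1 is higher at CT28 than at CT16 and CT40 in fasted liver, though not in males at CT16, and lower in fed liver.

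Of 16 bile acid genes, 0 were higher and 3 lower (18.8% against the background of 13.6% lower), and without CT40 female 2 1 was higher and 2 lower. Against CT28, 5 were higher and 1 lower at CT16, and 0 higher and 3 lower at CT40. Cyp7a1, the rate-limiting enzyme of bile acid synthesis, stood at 193, 190, 117 and 26.8 CPM at CT16, 8.97, 18.4, 18.4 and 143 at CT40 and 120, 147, 494 and 462 at CT28. Apart from CT40 female 2 (143 CPM), the CT40 values were the lowest, and the groups overlapped. The CT16 males lay above both CT28 males, whereas the CT16 females lay below both CT28 females. The log2 difference was -2.01 ± 0.49 (adjusted p = 0.00197), made up of -1.11 at CT16 (adjusted p = 0.164) and -2.92 at CT40 (adjusted p = 0.00121). In fed liver it was 1.75 ± 0.56 (adjusted p = 0.027), the opposite sign, and the difference between them was -3.76 ± 0.76 (adjusted p = 0.00106). Baat, which joins bile acids to taurine, was lower by 0.43 on the log2 scale. Abcb11, the bile salt export pump, was lower by 0.42, a call lost without any of 5 of the 12 libraries (adjusted p up to 0.0931).

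Genes of drug and cofactor metabolism included several with close values in fasted and fed liver. Of 22 genes of drug metabolism and heme synthesis, 7 were higher and 0 lower (31.8% and 0%, background 11.7% and 13.6%). The median was 0.26 in fasted and 0.21 in fed liver. Por, the reductase that feeds electrons to cytochrome P450 enzymes, ranged from 1110 to 2690 CPM in the active phase and from 489 to 844 CPM at CT28, a log2 difference of 1.31 ± 0.18 against 1.25 ± 0.18 in fed liver. Cyp2a5 rose by 1.96 and 1.48. Alas1, the first enzyme of heme synthesis, rose by 1.25 and 2.39, the fasted call being lost without any of 4 of the 12 libraries (adjusted p up to 0.105). Nampt, the rate-limiting enzyme of NAD salvage, stood at 149, 156, 170 and 168 CPM at CT16, 124, 116, 97.4 and 117 at CT40 and 43.6, 60.7, 48.1 and 47.9 at CT28. It separated the phases without overlap, by 1.43 ± 0.13 in fasted and 1.39 ± 0.13 in fed liver. Of 21 genes of NAD synthesis and sirtuins, 5 were higher, among them Sirt1 (0.52), and 4 lower, among them Sirt6 (-0.34) and Nmnat3 (-0.79). These shares were 23.8% and 19%, against a background of 11.7% and 13.6%.

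Of 28 genes of the one-carbon and methyl cycle, 6 were higher and 3 lower (21.4% and 10.7%, background 11.7% and 13.6%). Their median was 0.15 in fasted and 0.19 in fed liver. Mat2a, the extrahepatic form of the enzyme that makes S-adenosylmethionine, rose without overlap by 0.67 ± 0.09, from 62.6 to 74.4 CPM at CT28 to 87.7 to 154 CPM in the active phase. Mtrr, which reactivates methionine synthase, rose by 0.62 ± 0.13. Cbs, the entry to transsulfuration, was lower by 0.58, but its call was lost without CT28 male 1 (-0.30, adjusted p = 0.285). Bhmt, which remethylates homocysteine with betaine, was lower by 0.71, a call lost without any of 9 of the 12 libraries (adjusted p up to 0.297). Of 24 genes of the urea cycle and amino acid catabolism, 6 were higher (25%) and 2 lower (8.33%), among them Prodh (0.56) and Hal (-0.86).

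Heat shock genes, which follow body temperature, were higher in the active phase in both treatments. Of 19 tested, 10 were higher and 1 lower in fasted liver (52.6% and 5.26%, background 11.7% and 13.6%, median 0.40). Against CT28, 10 were higher and 1 lower at CT16 (median 0.40), and 4 higher and 0 lower at CT40 (median 0.34). In fed liver 17 were higher and 1 lower (median 0.80). The fasted minus fed difference was called downward for 3, Hspa8, Hsp90aa1 and Hspa4l (over all genes tested, 3.41%). Hspa8 rose by 0.62 in fasted and 1.41 in fed liver. Cirbp, a gene induced by cold, was the one that fell, by 0.96 in fasted and 1.20 in fed liver, and in fasted liver the fall lay at CT16 (-1.58, adjusted p = 2.14e-07) more than at CT40 (-0.33, adjusted p = 0.293). In the 2 CT40 females it stood at 37.5 and 62.3 CPM, above every CT28 library (28.8 to 36.7 CPM). Hspa1a, the inducible HSP70, rose by 1.51, with 3.04 at CT16 and -0.02 at CT40, a call lost without any of 4 of the 12 libraries (adjusted p up to 0.114). Dnajb1 and Hsph1 rose by 0.76 and 1.02, the Hsph1 call being lost without CT28 male 1 (0.86, adjusted p = 0.0597).

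Other stress lists were mixed. Of 15 genes of the integrated stress response, 6 were higher and 3 lower (40% and 20%, background 11.7% and 13.6%). Cebpb rose by 1.45 ± 0.24 and Ddit4, an inhibitor of mTORC1, by 2.88 ± 0.67 (1.40, adjusted p = 0.0443, without CT40 female 2), whereas Atf5 fell without overlap, from 719 to 1110 CPM at CT28 to 217 to 471 CPM in the active phase (-1.25 ± 0.12). Of 20 chaperones of the endoplasmic reticulum, 3 were higher and 2 lower (4 lower without CT40 female 2), led by Herpud1 (1.34 ± 0.25). These shares were 15% and 10%, against a background of 11.7% and 13.6%. Of 20 autophagy genes, 4 were higher and 2 lower in fasted liver (20% and 10%, background 11.7% and 13.6%). In fed liver 3 were higher and 8 lower, and the fasted minus fed difference was called upward for 6 (over all genes tested, 4.05%). Ulk1, the kinase that starts autophagy, ranged from 129 to 175 CPM in the active phase and from 93.3 to 115 CPM at CT28, a rise of 0.58 ± 0.13 in fasted liver, and fell in fed liver (-0.64 ± 0.12). Of 20 cell cycle and growth arrest genes, 7 were higher and 4 lower (35% and 20%, background 11.7% and 13.6%). Wee1, a clock-controlled kinase that delays mitosis, rose by 1.89 in fasted and 2.17 in fed liver, Plk3 by 3.22 in fasted liver, and Ccnd1 fell by 1.01. Of 21 acute phase genes, 3 were higher (14.3%, background 11.7%) and 0 lower, among them Saa4 (1.32) and Steap4 (0.76).

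Genes of the translation and protein turnover machinery moved by small amounts. Of 84 cytosolic ribosomal protein genes, 51 were higher and 0 lower (60.7% and 0%, background 11.7% and 13.6%). The median log2 difference was 0.20 (0.05 in fed liver, 1 higher), and 27 were higher without CT40 female 2. Many ribosomal protein genes have processed copies elsewhere in the genome with which they can share reads. Of 22 ribosome biogenesis genes, 5 were higher (22.7%), 2 of them without CT40 female 2 (and 2 then lower), against 12 higher in fed liver. Of 38 proteasome subunits, 1 was higher and 15 lower (2.63% and 39.5%, background 11.7% and 13.6%). Here the times differed, with 27 lower at CT16 and 13 higher at CT40. Of 18 V-ATPase subunits, 7 were higher (38.9%, background 11.7%) and 0 lower (1 lower without CT40 female 2). Of 13 mRNAs of the mitochondrial genome, 1 was higher (7.69%, background 11.7%) and 0 lower (2 higher without CT40 female 2).

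Genes with the largest rises that were abundant and free of overlap included, beside Ppp1r3g, Usp2, Lpin1, Ciart and Pdk4, Noct, a deadenylase family member under clock control (3.63 in fasted and 2.37 in fed liver), and Dusp8, a phosphatase of JNK and p38 (3.60), whose promoter above holds 2 cAMP response elements. The others were Plk3 (3.22), Lingo4 (2.68) and Jun (2.65), a member of the AP-1 family. In fed liver Jun rose by 1.07 and Lingo4 by 3.06, and Dusp8 (1.68) and Plk3 (0.73) were not called.

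The largest falls under the same rule were smaller. Klhdc7a fell by 2.55 ± 0.34, from 12.4 to 22.9 CPM at CT28 to 0.221 to 8.04 CPM in the active phase. Cldn1, a tight junction protein, stood at 37.4, 42.3, 23.8 and 25 CPM at CT16, 26.2, 37.7, 32.7 and 7.51 at CT40 and 91.5, 76.9, 91.4 and 117 at CT28. Its levels at CT28 were all at least 76.9 CPM and none in the active phase passed 42.3 CPM, a log2 difference of -1.73 ± 0.21 (adjusted p = 3.7e-08), against -0.49 ± 0.21 in fed liver (not called) and a fasted minus fed difference of -1.24 ± 0.31 (adjusted p = 0.00771). Tjp3, which binds claudins at their inner face, was lower by 1.32, with -0.00 in fed liver. Lpl, the lipoprotein lipase, was lower by 1.72, and the interferon-induced genes Cmpk2 and Oasl1 by 1.45 and 1.42. The rule also named Fam131c (-1.54), Ncald (-1.42), Tnfaip2 (-1.33) and Rtn4rl1 (-1.28).

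Markers of other cells moved with some of these. In tissue such as this, fewer cells of a type and less RNA per cell cannot be told apart. Of 7 lymphocyte markers 3 were lower in the active phase (Cd79a, Cd79b and Ms4a1), and their sum was 13.3 to 29.3 CPM at CT28, 13.2 to 26.6 at CT16 and 9.17 to 12.8 at CT40. Of 5 neutrophil markers 2 were lower (summed 3.85 to 9.02 CPM at CT28, 2.46 to 6.18 at CT16 and 2.01 to 7.66 at CT40), and of 5 red blood cell markers 4 (114 to 195, 93.2 to 269 and 33 to 99 CPM). Of 8 Kupffer cell markers 1 was higher, Cd163, and of 8 endothelial markers 2, Oit3 and Stab1, while 1 of 8 stellate cell markers, Pdgfrb, was lower. Over all genes tested 11.7% were higher and 13.6% lower. The small Kupffer, endothelial and stellate cell counts are near this background. The lymphocyte, neutrophil and red blood cell counts lie above its share of lower genes, though on few markers each. None of 6 hepatocyte and 6 cholangiocyte markers was called, cholangiocyte markers summing to 22.9 to 50.7 CPM at CT28, 24.8 to 37.7 at CT16 and 9.13 to 23 at CT40. Pericentral and periportal hepatocyte markers each had 1 higher and 1 lower of 7 (Slc1a2 and Lgr5, Pck1 and Hal). The 6 pancreatic acinar and 2 adipocyte markers tested were not called, with Pnlip, Amy2a1, Retn and Lep at 0 in all 12 libraries. The part of these cells in the falls above was not tested. Histone genes, most of whose mRNAs lack a poly(A) tail, were listed as a sign of RNA quality in such libraries. Over the 14 tested the median log2 difference was -0.39 in fasted liver (over all genes tested, -0.02) and 0.34 in fed liver. The median fasted minus fed difference was -0.97, with 0 members called. Whether RNA quality differed between the groups was not tested. In fasted liver 0 were higher and 2 lower (14.3%, background 13.6%), H1f0 and H2bc4. These calls were lost without any of 2 and 10 of the 12 libraries. Whether the mRNAs of these 2 genes lack the tail was not tested.

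For the fasted minus fed difference, the rule named 5 genes in each direction by their p. Klhl24 stood at 146, 131, 116 and 153 CPM at CT16, 139, 125, 96.1 and 114 at CT40 and 91.2, 89.5, 74.7 and 72.2 at CT28. The active-phase values were the higher ones without overlap (0.64 ± 0.10 on the log2 scale), and in fed liver they were the lower ones (-0.98 ± 0.10), a difference of 1.62 ± 0.14 (adjusted p = 2.74e-10). Tcp11l2 (1.87), Arhgef37 (1.72), Nr1d2 (1.59) and Oga (0.90), the enzyme that removes N-acetylglucosamine from proteins, were the other upward ones. In the downward direction Ajuba, a LIM protein of cell junctions, stood at 5.2, 5.49, 2.95 and 2.09 CPM at CT16, 4.75, 6.01, 8.62 and 5.97 at CT40 and 10.1, 10.7, 9.32 and 9.64 at CT28. It was lower in the active phase of fasted liver (-1.05 ± 0.16) and higher in that of fed liver (0.70 ± 0.17), a difference of -1.74 ± 0.23 (adjusted p = 3.79e-06). Actb, the cytoplasmic actin often used as a reference gene, was lower by 0.62 in fasted and higher by 0.41 in fed liver, a difference of -1.03 ± 0.16. Its fasted fall lay at CT16 (-0.92, adjusted p = 7.1e-07) more than at CT40 (-0.32, adjusted p = 0.0873), and the libraries of the phases overlapped. Snapc3 (-0.79), Mrap (-0.97) and Tpm1 (-0.67) completed the rule, and the fasted call of Mrap itself was missed (-0.26, adjusted p = 0.0519).

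The phase contrast differed between the sexes in 7 genes (0.033%), all larger in females, by the same test, with 1625 genes at an unadjusted p under 0.05. Rhbdf2, an inactive rhomboid protein, had a female minus male difference of 1.20 ± 0.23 (adjusted p = 0.033), Thsd4 2.50 ± 0.44 (adjusted p = 0.0244) and Maml1, a coactivator of NOTCH, 0.61 ± 0.12 (adjusted p = 0.033). These calls were lost without any of 8, 6 and 9 of the 12 libraries, and the whole count ran from 0 to 402 when 1 library was left out, the latter without CT40 female 1. Without a filter on low counts it was 407, and with DESeq2 it was 19.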

How the data were processed

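Raw gene counts were used as deposited. According to the submitters' processing notes the authors trimmed reads with Trimmomatic, aligned them to GRCm39 with HISAT2 and used DESeq2. Versions and the counting tool are not given in the sources used here. The library kit was stranded and selects poly(A) RNA. The deposited normalized and exon tables were not used.

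Of 78275 genes, 21187 passed edgeR's filter on low counts. Counts were scaled by TMM and fitted in R 4.3.3 with edgeR 4.0.16 (quasi-likelihood test, Benjamini-Hochberg adjustment, threshold 0.05) as 1 mean for each treatment, time and sex over all 80 libraries, leaving 40 residual degrees of freedom. The phase contrast was the mean of CT16 and CT40 minus CT28, in log2 units. Fed, fasted minus fed and female minus male contrasts came from the same fit. CPM are not per length, so levels were not compared between genes. Of 200 genes given a log2 change of 1 in simulated counts, 95% were found by the fasted contrast, with 20 false calls. The 200 were drawn from genes with a mean log2 CPM of at least 1. The simulated counts followed the fitted spread and held no library that stood apart. The share found therefore does not cover less abundant genes or a library such as CT40 female 2.

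Named genes were all clock and output genes, at most 4 called members of each other list with the largest differences, the 10 largest rises and falls without overlap at a mean log2 CPM of at least 1, the 5 smallest p in each direction for fasted minus fed, and 3 for sex. Other genes were named after their values were seen. Some genes that the rule names are not reported here. Members and lists were chosen with earlier results of these data known. Alternatives used other scaling (limma 3.58.1 voom, DESeq2 1.42.0), filters, samples, covariates and left-out libraries. Replicate numbers were not taken as pairs of libraries.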

Additional observations from a re-analysis of the deposited data

Results flagged for a closer look

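Among 111 groups of 4 values looked at, 5 held a library whose gap to the nearest other exceeded the critical 0.829 of the group's range, and chance gives about 5% (5.55). The gaps were 0.917 for Nr1d2 at CT28 (male 2, 69.6 CPM), 0.877 for Por at CT40 (female 2), 0.878 and 0.974 for the share of counts on Rn18s-rs5 at CT28 (male 2) and CT40 (male 1), and 0.885 for the mean absolute log2 deviation from the group at CT40 (female 2).

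The phase contrast differed between fasted and fed liver in 1582 genes by the test of the difference itself. Among clock genes the difference was 1.59 for Nr1d2, 2.04 for Nr1d1 and 1.72 for Dbp. Among metabolic genes it was 6.71 for Ppp1r3g, 4.03 for Igfbp1, 3.79 for Pdk4, 2.90 for Lpin1, 1.55 for Tat, 1.72 for Fdps, 1.42 for Insig1 and -3.76 for Cyp7a1. The Igfbp1 value includes CT40 female 2 (6300 CPM) and fed CT28 female 2 (218 CPM), each the highest of its group. Ppp1r3g was at most 1.45 CPM in the fed libraries of these times. Among the others it was 1.62 for Klhl24, 1.87 for Tcp11l2, 1.72 for Arhgef37, 0.90 for Oga, 1.22 for Ulk1, 0.51 for Rhbdf2, -1.74 for Ajuba, -0.79 for Snapc3, -0.97 for Mrap, -0.67 for Tpm1, -1.03 for Actb, -1.50 for Klhdc7a and -1.24 for Cldn1.

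The fasted phase contrast differed between the sexes in 7 genes, among them Thsd4 (2.50), Rhbdf2 (1.20) and Maml1 (0.61).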

How the results depend on the processing

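The count of 5351 genes in the fasted phase contrast stayed within 1.5 times under both other scalings, both other filters, limma voom (5328), DESeq2 (5614), the 40 fasted libraries alone and no sex term (3828). With the replicate number as a block it was 5272, and the block changed no count by over 1.5 times, while Hlf, Bhmt and H2bc4 lost their fasted call and Thsd4 gained one. Same-numbered libraries of CT16 and CT28 correlated in their deviations at r = 0.508 in males and 0.215 in females. For the other pairs of times r was -0.0433 to 0.0398. The numbers were not taken as pairs, and a factor shared by same-numbered libraries of CT16 and CT28 was not tested further. The count of 5351 became 3190 at an adjusted p under 0.01, 612 for a change of at least 1.5 times, 2600 with only the 12 libraries, 2203 in males, 2602 in females, 3552 from CT40 alone and 3843 to 6009 with 1 library left out. In the same order (adjusted p under 0.01, 1.5 times, fewer libraries, males, females, 1 left out), CT16 against CT28 gave 4240, 1188, 3597, 2277, 4084 and 4842 to 6850, CT40 against CT28 gave 1684, 269, 900, 1575, 1430 and 2096 to 5232, and fasted minus fed gave 652, 77, 809 (24 libraries), 405, 281 and 1023 to 2417. The fed contrast gave 1683, 217, 1106 in males, 903 in females and 1746 to 2993. Without a sex term CT40 gave 2065, fasted minus fed 689 and fed 1756. The sex difference (7 genes) gave 0 at an adjusted p under 0.01, for 1.5 times, with only the 12 and with only the 40 fasted libraries, 1 under upper quartile scaling, 19 with DESeq2, 407 without a filter and 0 to 402 with 1 library left out. The 1001 genes without overlap became 1069 to 1676. The larger direction of the calls did change. Fasted minus fed gave 774 upward and 812 downward under upper quartile scaling and 1189 and 1228 without CT40 female 1. CT40 against CT28 gave 1979 higher and 1693 lower with DESeq2 size factors and 1466 and 2003 with upper quartile scaling. The sex difference gave 172 upward and 230 downward without CT40 female 1. The cause of these shifts was not tested, beyond the fewer libraries, genes or stricter thresholds that some settings hold by construction.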

Other observations

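Among genes grouped after their values were seen, 19 interferon-induced genes had 0 higher and 11 lower in the active phase of fasted liver (median log2 difference -0.55, background 13.6% lower), against 6 lower in fed liver. Ifit1 had -1.36, Isg15 -1.20, Rsad2 -1.18 and Mx1 -1.22. Against CT28, 6 were higher and 8 lower at CT16 and 0 higher and 14 lower at CT40. Those higher at CT16 were Oas2 (1.10), Oas3 (1.14), Oas1a (0.86), Oas1g (0.95), Irf7 (0.72) and Oasl2 (0.55), none of which was called in the contrast of both times, and without CT40 female 2 the contrast called 9 lower.

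Of 15 genes of tight junctions and cell contact, 1 was higher and 9 lower (background 11.7% and 13.6%), against 1 and 1 in fed liver. Cldn5 had -1.08, Cldn3 -0.88, Cldn2 -0.77 and Cdh1, the epithelial cadherin, -0.81. Of 15 immediate early genes, 6 were higher and 0 lower (background 11.7% higher), among them Fos (1.25), Fosl2 (0.97) and Atf3 (1.46), the Atf3 call being lost without CT28 male 2 (1.13, adjusted p = 0.0669). As these groups were picked from the same data, their counts are descriptions.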
